A study of Sus scrofa with 9 samples.

Results

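The 44 genes described here are the core of the TGF-beta and BMP signalling pathway, chosen by symbol for their known roles. They are ligands, latency proteins, receptors, SMADs and secreted antagonists. All 44 were found among the 18933 genes of the table that compares Obese-MSCs with Lean-MSCs and among the 18992 genes of the table that compares vitamin-C-treated with untreated Obese-MSCs. The quantity measured was 5-hydroxymethylcytosine (5hmC), an oxidised form of methylated cytosine that TET enzymes make and that is often found over the bodies of transcribed genes. DNA fragments carrying 5hmC were captured with an antibody and sequenced (hMeDIP-seq), and the level of a gene is its normalized count of captured reads over exons. A level of 5hmC is not a level of transcript.

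The cells were mesenchymal stem/stromal cells (MSCs) cultured from subcutaneous abdominal fat of female domestic pigs, in 3 groups of 3 libraries. Lean-MSCs (labelled Lean 7, 8 and 9) came from pigs on standard chow. Untreated Obese-MSCs (Obese 1, 2 and 3) came from pigs fed a high-fat/high-fructose diet for 16 weeks. Treated Obese-MSCs (4, 5 and 6) came from pigs on that same diet and were exposed in culture to vitamin-C, a cofactor of TET enzymes, at 50 µg/mL for 48 h. The pigs were 3 months old when the diets began, and every library came from cultured cells at passage 3 to 4. The sources used here do not match treated cultures to untreated ones by pig, and p-values measure the spread between these libraries. Cultures are populations, so a change in the share of cells that carry the mark and a change in 5hmC per cell cannot be told apart.

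Ligands of this family are secreted dimers. TGF-beta is held in a latent complex in the matrix by LTBP proteins until it is released, while activins, BMPs and GDFs are restrained by antagonists such as follistatin, noggin, chordin and gremlin. A ligand brings together type I and type II receptor kinases, which phosphorylate receptor-regulated SMADs. SMAD2 and SMAD3 serve TGF-beta and activin, SMAD1, SMAD5 and SMAD9 serve BMP, SMAD4 is the shared partner, and SMAD6 and SMAD7 inhibit the pathway. In MSCs these signals are known for directing cartilage, bone and fat differentiation.

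Library totals ran from 494566 to 522269 normalized counts for Obese-MSCs and Lean-MSCs, and from 547242 to 593846 in the second table, where the untreated libraries were 1.10 to 1.13 times as high by the median gene. Among values near 1, the most frequent lay between 0.74 and 1.29 in every library. Only values near 1 were searched, so this cannot show how many reads 1 normalized count stands for. A mean of 3 or less was taken here as the limit of this depth. The 3 MSC markers NT5E, THY1 and ENG (ENG is also a TGF-beta co-receptor) summed to between 94.8 and 123 in Obese-MSCs and between 80.1 and 88.4 in Lean-MSCs. The 3 markers that MSCs should lack as proteins, CD14, CD34 and PTPRC, summed to between 60.6 and 71.6 in Obese-MSCs and between 66.9 and 89.4 in Lean-MSCs, which overlapped, and 1 of them was at 0 in at least 1 library. Marker sums of endothelial cells, macrophages and adipocytes also overlapped between Obese-MSCs and Lean-MSCs, and all these sums overlapped between treated and untreated Obese-MSCs. The MSC marker sums did not overlap between Obese-MSCs and Lean-MSCs. Among single markers, 1 of MSCs, 1 that MSCs should lack and 1 of macrophages did not overlap there. In the treated comparison 1 endothelial and 1 macrophage marker did not. Whether a marker difference had a part in any result was not tested.

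**Figure D1:**
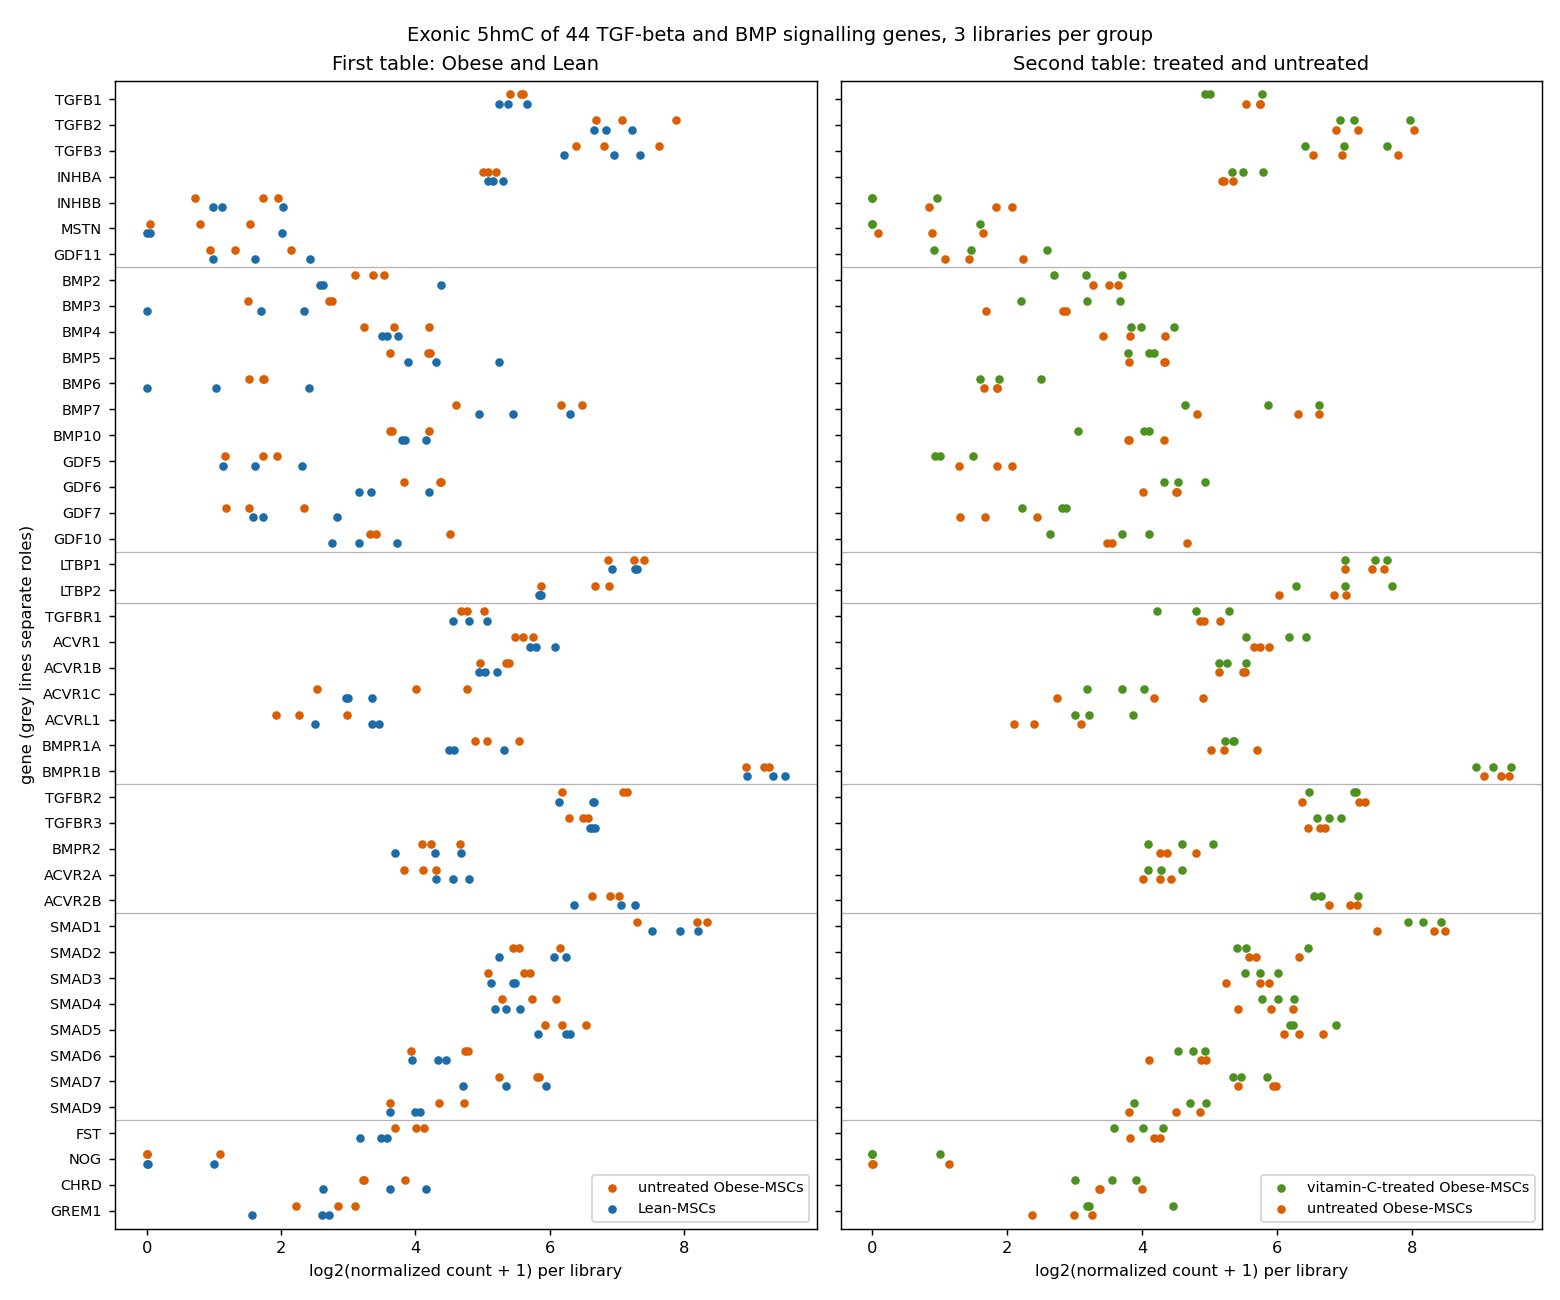
Exonic 5hmC of the 44 genes as log2(normalized count + 1), 1 point per library, with Obese-MSCs and Lean-MSCs on the left and treated and untreated Obese-MSCs on the right. Grey lines separate the roles. Points of the groups interleave for nearly every gene, and INHBB, MSTN, GDF11, GDF5 and NOG sit at the low end in both tables.

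The first question was whether obesity changed 5hmC over these genes. By the study's criteria (p-value no higher than 0.05 in a two-sided equal-variance test, and group means differing by a ratio of 1.4 or more, or 0.7 or less), 1 of the 44 genes was high in Obese-MSCs, the antagonist FST, and 0 were low. That is 2.27% of the genes, where the same criteria called 2.07% of all genes high, 2.43% low and 4.5% in either direction. The groups did not overlap for 1 gene that was higher (FST) and 2 that were lower (ACVR2A and TGFBR3), which is 6.82% of the 44. Among all genes the groups did not overlap for 11.8%, with 5.7% higher and 6.06% lower. After adjustment over all 15146 genes tested with limma, 0 genes passed 0.05, while 6.81% of them passed 0.05 unadjusted. Of the 44, 36 were tested, 1 (LTBP2) had an unadjusted p-value under 0.05, and the smallest adjusted p-value was 0.697. The shares called or separated among these genes thus lay near or below those among all genes.

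FST encodes follistatin, a secreted protein that binds and neutralises activins and also myostatin. It lies on chromosome 16 of Sscrofa11.1 (positions 32806341 to 32811382). Its 5hmC was 16.4, 15.2 and 11.9 normalized counts in Obese 1, 2 and 3 and 8.0, 10.9 and 10.3 in Lean 7, 8 and 9. All Obese libraries lay above all Lean libraries, with a gap of about 1 normalized count between the nearest. The means were 14.5 ± 2.33 and 9.73 ± 1.53 (SD, n = 3 each). The ratio of 1.49 had a p-value of 0.0410 by the study's test and of 0.1 by the two-sided exact permutation test, which is the smallest that 20 arrangements allow. With limma the difference was 0.53 on the log2(value + 1) scale, with a standard error of 0.33, a 95% interval from -0.16 to 1.22 and an adjusted p-value of 0.815. The call was lost when Obese 1, Obese 2, Lean 7, Lean 8 or Lean 9 was left out, while the log2 ratio stayed between 0.45 and 0.70. In the second table FST was 15.1, 11 and 18.9 in treated and 18.2, 17.1 and 13.2 in untreated libraries, which overlapped.

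Among the receptors, ACVR2A, a type II receptor for activins, was lower in every Obese library. It lies on chromosome 15 (4177333 to 4259056), and its levels were 16.3, 13.2 and 18.7 in Obese-MSCs and 22.6, 18.9 and 26.7 in Lean-MSCs. The highest Obese and the lowest Lean library were almost equal. The ratio was 0.708, just outside the criterion of 0.7, and the limma difference was -0.47 (95% interval -1.09 to 0.14, adjusted p-value 0.815). Without Lean 8 the ratio was 0.652 and ACVR2A met the study's criteria. TGFBR3, the co-receptor betaglycan that presents TGF-beta to its receptors, lies on chromosome 4 (125109939 to 125310788). Its levels were 93.5, 76.7 and 89.4 in Obese-MSCs and 98.4, 101 and 95.5 in Lean-MSCs. These groups did not overlap either, but the ratio was 0.879 and the limma adjusted p-value 0.906. With vitamin-C both receptors overlapped between groups. ACVR2A was 23.1, 18.5 and 16.0 in treated against 18.1, 15.1 and 20.5 in untreated libraries, and TGFBR3 was 123, 108 and 95.7 against 104, 86.9 and 98.4.

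BMPR1B, a type I receptor for BMPs on chromosome 8 (124536648 to 125035841), had the highest mean count of the receptors. Counts grow with exon length, so this order is not a comparison of 5hmC density. BMPR1B was 482, 612 and 580 in Obese-MSCs and 490, 641 and 722 in Lean-MSCs. The groups overlapped and the limma difference was -0.14 (95% interval -0.47 to 0.20), an interval that keeps within a ratio of 1.4 in either direction. The other type I receptors had log2 ratios between -0.82 for ACVRL1, the endothelial receptor ALK1, and 1.01 for ACVR1C, the receptor ALK7 that is known from fat. Both were chosen here after their values were seen. ACVR1C was 4.79, 15.2 and 26.4 in Obese-MSCs and 6.83, 6.95 and 9.23 in Lean-MSCs, so 1 Obese library lay below all the Lean ones. ACVRL1 was 3.81, 2.81 and 6.88 against 4.68, 9.93 and 9.23, which also overlapped.

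**Figure D2:**
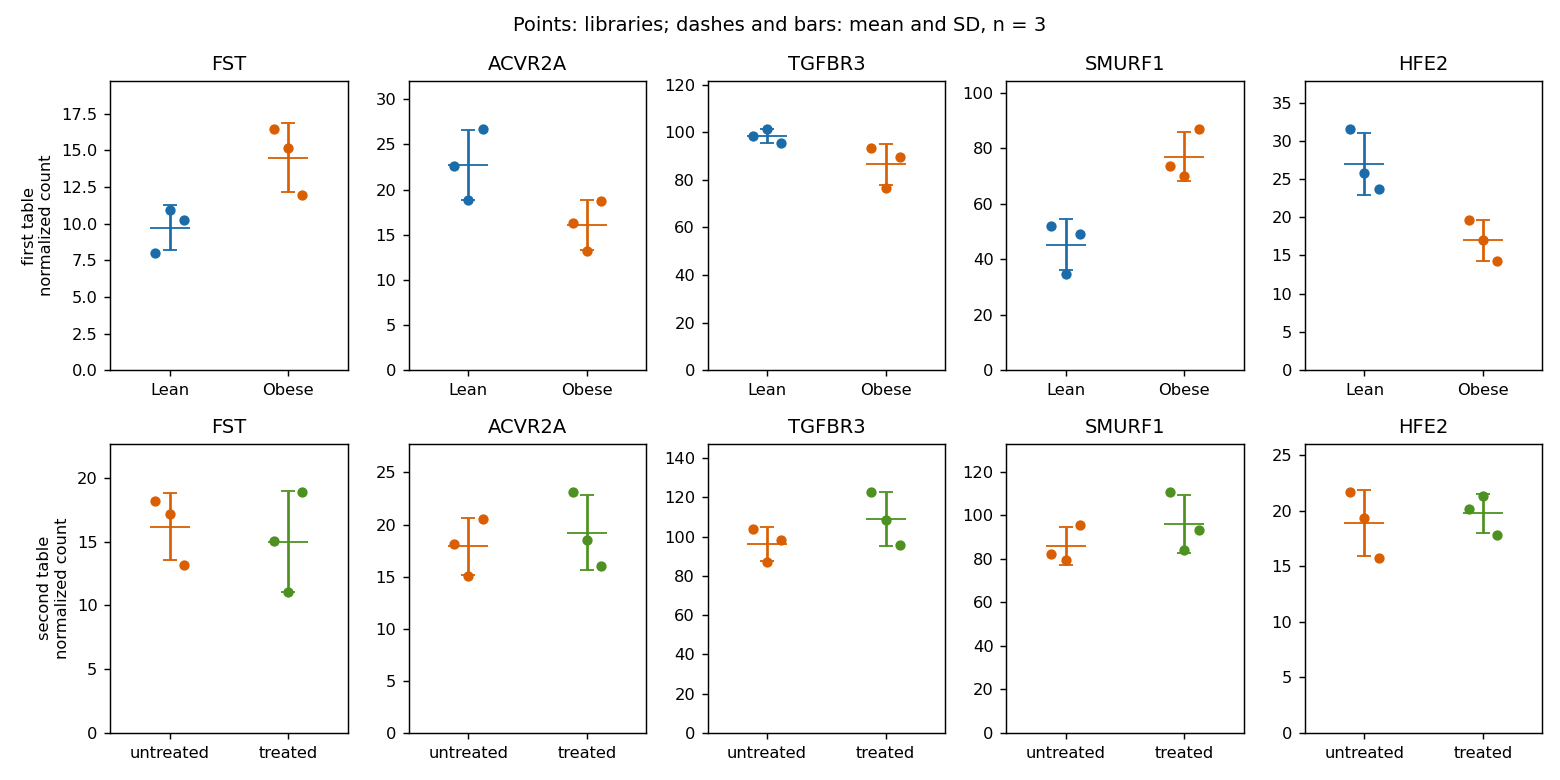
Normalized counts of FST, ACVR2A, TGFBR3, SMURF1 and HFE2 (the older symbol of HJV) in each library, with the mean and SD (n = 3), for Lean-MSCs and Obese-MSCs above and untreated and treated Obese-MSCs below. The groups of the upper row do not overlap for these genes, while those of the lower row do.

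Of the ligands, TGFB2 (chromosome 10, 8306136 to 8435307) had the highest mean count. It was 235, 102 and 133 in Obese-MSCs and 113, 100 and 148 in Lean-MSCs. Obese 1 stood above the other 5 libraries, which interleaved, and the log2 ratio of 0.38 turned to -0.03 when Obese 1 was left out. The 4 TGF-beta and activin ligands with a mean above 3 had log2 ratios between -0.08 and 0.38. The 8 BMP and GDF ligands above that level ranged from -0.59 for BMP5 to 0.64 for GDF10. BMP2, a ligand used to drive bone formation, was 9.33, 7.55 and 10.5 in Obese-MSCs and 19.8, 4.95 and 5.18 in Lean-MSCs, and it met the criteria as high when Lean 7 was left out, as did BMP6 at levels under 3 counts. These 4 ligands were chosen after their values were seen. The 7 genes with a mean of 3 or less, INHBB, MSTN, GDF11, BMP6, GDF5, GDF7 and the antagonist NOG, could not be compared at this depth.

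Both LTBP genes of the list encode large matrix proteins of the latent TGF-beta binding family. LTBP1, which tethers latent TGF-beta to the matrix and lies on chromosome 3 (106300748 to 106724538), was 152, 169 and 116 in Obese-MSCs and 156, 120 and 153 in Lean-MSCs, with a difference of 0.02 (95% interval -0.41 to 0.44). LTBP2, a matrix protein of the same family that does not bind latent TGF-beta, lies on chromosome 7 (97744974 to 97852848) and is described because of its values. It was 57.5, 101 and 117 in Obese-MSCs and 56.5, 56.6 and 57.5 in Lean-MSCs. Obese 1 had the level of the Lean libraries, which were nearly equal to each other (SD 0.546), while Obese 2 and 3 lay well above them. The limma difference was 0.62 (95% interval 0.09 to 1.15), with an unadjusted p-value of 0.0244, the lowest of the 44 genes, and an adjusted one of 0.697. Without Obese 1 the ratio rose from 1.61 to 1.91 and LTBP2 met the study's criteria, as did SMAD6 with a ratio of 1.44. Without Obese 2 the TGF-beta receptor TGFBR2 met them, with a ratio of 1.55.

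Of the SMADs, the intracellular proteins of the pathway, 0 met the study's criteria. SMAD1, of the BMP arm, had the highest mean count of them (chromosome 8, 82907557 to 82987909). It was 324, 157 and 293 in Obese-MSCs and 184, 245 and 295 in Lean-MSCs, so the groups spanned much the same range. The limma difference was 0.06 (95% interval -0.44 to 0.55). Log2 ratios were above 0 for 7 of the 8 SMADs, with a median of 0.19 and a range from -0.16 to 0.42. Their intervals were wide, and that of SMAD9 ran from -0.36 to 1.04. Over the 37 genes with a mean above 3 the median log2 ratio was 0.13, with 25 above and 12 below 0, where the median of 15845 genes above the same level was 0.01. The median of the pathway genes was 0.04 without Obese 1 and 0.19 without Lean 7. This is a description of these libraries, and no test was made of the list.

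**Figure D3:**
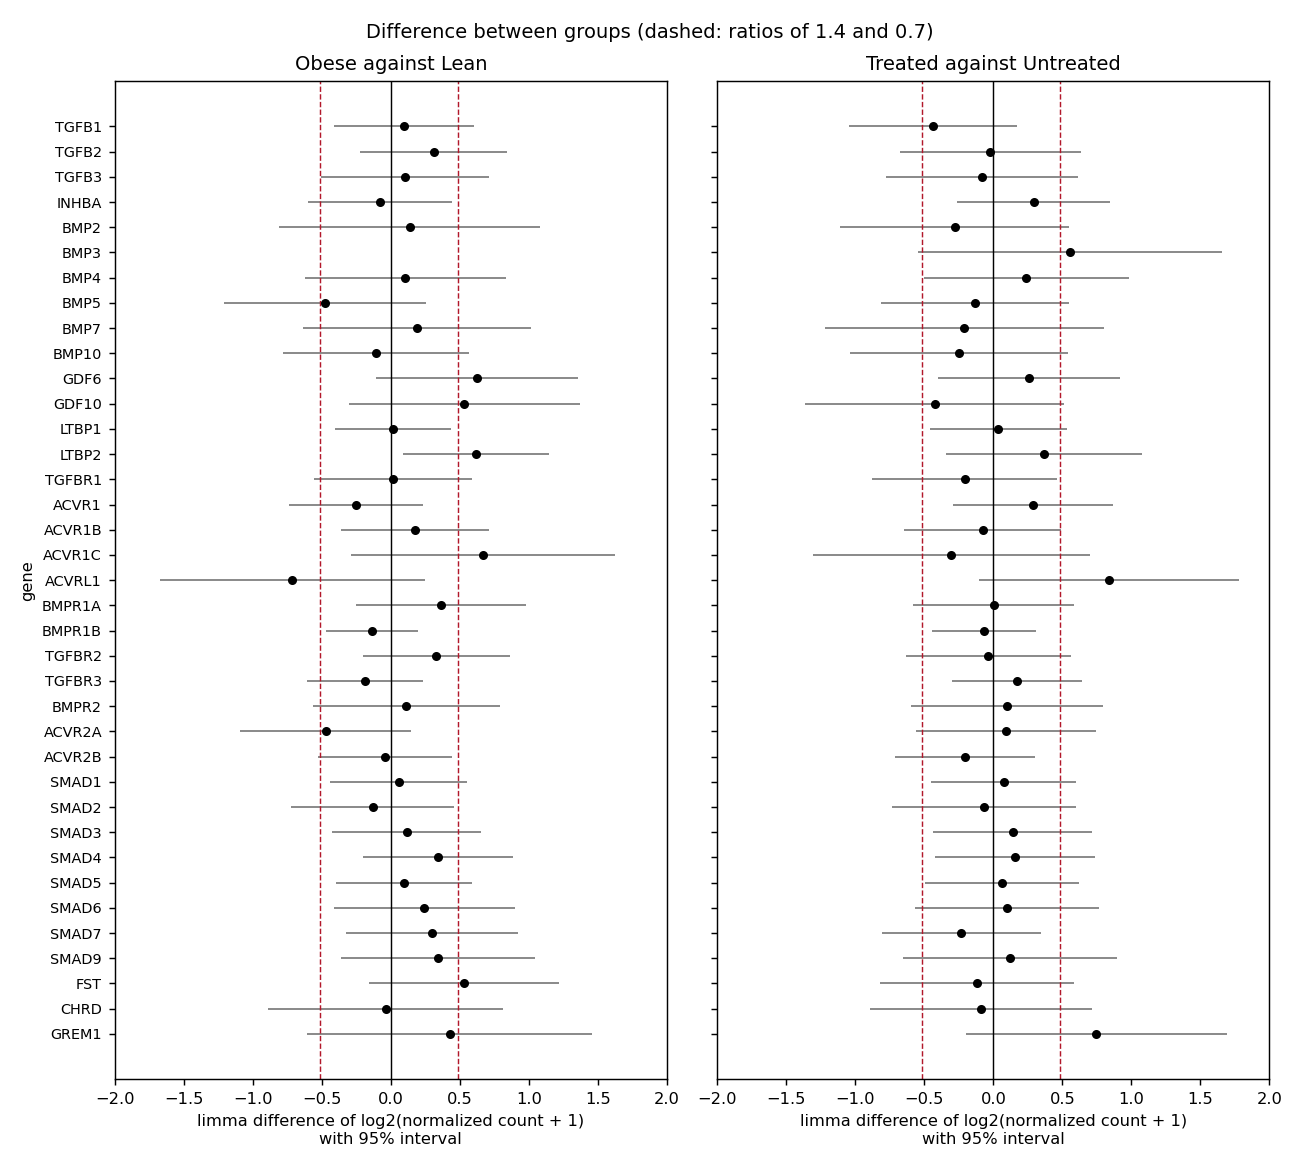
Limma difference of log2(normalized count + 1) with its 95% interval for each of the 44 genes that was tested, Obese-MSCs against Lean-MSCs on the left and treated against untreated Obese-MSCs on the right. Dashed lines mark ratios of 1.4 and 0.7. LTBP2 on the left is the gene whose interval excludes 0, and intervals are wide for genes of low level such as GREM1 and ACVRL1 and for BMP7 in the treated comparison.

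How large a difference these data could have missed is shown by the intervals. In Obese-MSCs against Lean-MSCs the interval stayed within 1 log2 unit, a doubling, for 24 of the 36 genes tested and reached past it for 12. For 2 genes, BMPR1B and LTBP1, it stayed within a ratio of 1.4. The median reach of an interval to either side was 0.61 log2 units. In the treated comparison 27 of 37 intervals stayed within 1 log2 unit and 10 reached past it, with a median reach of 0.67. For the other genes a difference as large as the study's criterion lay inside the interval in at least 1 direction.

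Another 67 genes of the pathway, among them further ligands, regulators of SMADs, activators of latent TGF-beta and target genes, were all found, 2 of them under an older symbol. In Obese-MSCs 1 was high and 1 was low by the study's criteria, which is 2.99% of the list beside 4.5% of all genes. SMURF1, a ubiquitin ligase that marks SMADs and BMP receptors for degradation, lies on chromosome 3 (6037732 to 6142569). It was 73.7, 70.1 and 86.9 in Obese-MSCs and 51.8, 34.7 and 49.3 in Lean-MSCs, with no overlap. The ratio of means (76.9 ± 8.81 over 45.3 ± 9.23, SD, n = 3 each) was 1.70, with a limma difference of 0.77 (95% interval 0.27 to 1.26) and an adjusted p-value of 0.668. SMURF1 met the criteria when any 1 library was left out. HJV, a BMP co-receptor known from iron metabolism, was listed as HFE2 (chromosome 4, 99327989 to 99332647). It was 19.6, 17.1 and 14.3 in Obese-MSCs and 31.5, 25.8 and 23.6 in Lean-MSCs, a ratio of 0.629, and limma gave an adjusted p-value of 0.704, and the call was lost without Obese 2, Obese 3 or Lean 8. Groups did not overlap for 5 of these genes that were higher and 4 that were lower, 13.4% of the list beside 11.8% of all genes.

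The second question was whether added vitamin-C changed 5hmC over the same genes, relative to other genes, in Obese-MSCs. Earlier work by the same group, the paper states, found more global 5hmC in Obese-MSCs given vitamin-C. A global rise of that kind could not be seen in these normalized values. The paper states that the growth medium itself held vitamin-C, so untreated cultures were not free of it. For that reason the paper proposes that the effect of vitamin-C could be underestimated. By the study's criteria 0 of the 44 genes were high or low, and the groups did not overlap for 0 of them. Among all genes the criteria called 1.11% high, 0.806% low and 1.92% in either direction, and the groups did not overlap for 5.91%, with 3.24% higher and 2.67% lower. Limma called 0 of 15194 genes after adjustment, and 0.974% of these passed 0.05 unadjusted. Of the 44 pathway genes 37 were tested and 0 passed 0.05 unadjusted, the smallest p-value being 0.0785 for ACVRL1. Of the other 67 pathway genes, 0 met the criteria and 5.97% did not overlap. SMURF1 had a ratio of 1.12 and HFE2 of 1.04, and the levels of both overlapped.

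The median log2 ratio of the 38 genes with a mean above 3 was 0.00, with 19 above and 19 below 0. GDF7 had 0.99 from its unraised means, and 0.83 with its untreated mean of 2.68 raised to 3. On the raised scale the largest positive value was 0.94 for ACVRL1, described here because of its values. It was 7.05, 8.29 and 13.6 in treated and 4.27, 3.27 and 7.49 in untreated libraries, and the ranges overlapped narrowly. Its limma difference was 0.84 (95% interval -0.11 to 1.78). In Obese-MSCs against Lean-MSCs it was -0.71 (95% interval -1.67 to 0.25). The comparisons share the untreated libraries, so a low value there lowers the first and raises the second. GREM1, the antagonist gremlin, was 8.06, 8.24 and 20.9 in treated and 6.92, 8.53 and 4.14 in untreated libraries, where treated library 6 alone stood high. TGFB1, the best known ligand of the family, was 31.2, 29.5 and 54.0 against 52.7, 52.5 and 45.5. It met the criteria as low (ratio 0.604) when treated library 6 was left out, as the receptor ACVR1 did as high (ratio 1.47). INHBB was low without untreated library 1 and GDF5 without untreated library 3, both at levels near or under 3 counts.

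Genes of this pathway also varied between libraries of 1 group. For the 33 genes with a mean above 10, the highest library was at least 2 times the lowest for 27.3% in Obese-MSCs and for 27.3% in Lean-MSCs, beside 21.5% and 16.9% of all genes above that mean. In the second table it was 30.3% in treated and 21.2% in untreated Obese-MSCs, beside 26.9% and 21% of all genes. In the second table this variation recurred from untreated to treated libraries for some genes. It did not for others, such as TGFB1 and GREM1 given above, whose lowest untreated library was 3 and highest treated library was 6. TGFB2 was 261, 116 and 147 in untreated libraries 1, 2 and 3 and 249, 121 and 140 in treated libraries 4, 5 and 6. TGFB3, another TGF-beta ligand, was 124, 221 and 91.5 against 127, 197 and 84.7. The middle library of the untreated group was thus lowest for the one ligand and highest for the other, and so was treated library 5.

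A like pattern was seen in other roles. BMP7, a BMP ligand, was 78.8, 27.1 and 97.4 in untreated and 57.3, 23.8 and 97.2 in treated libraries. The TGF-beta receptor TGFBR2 was 157, 81.7 and 149 against 140, 87.8 and 143. Untreated library 2 and treated library 5 were low for both. SMAD1 followed with 360, 178 and 322 against 343, 246 and 286, and SMAD9, also of the BMP arm, with 21.6, 13.0 and 28.0 against 25.1, 13.7 and 29.7. SMAD2, of the TGF-beta arm, ran the other way, with 50.8, 79.2 and 47.0 against 41.3, 87.3 and 45.5. The lowest libraries of LTBP2 were untreated 1 (64.4, beside 114 and 129) and treated 4 (76.5, beside 128 and 208). TGFB3, BMP7, TGFBR2, SMAD2 and SMAD9 were chosen after their values were seen.

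**Figure D4:**
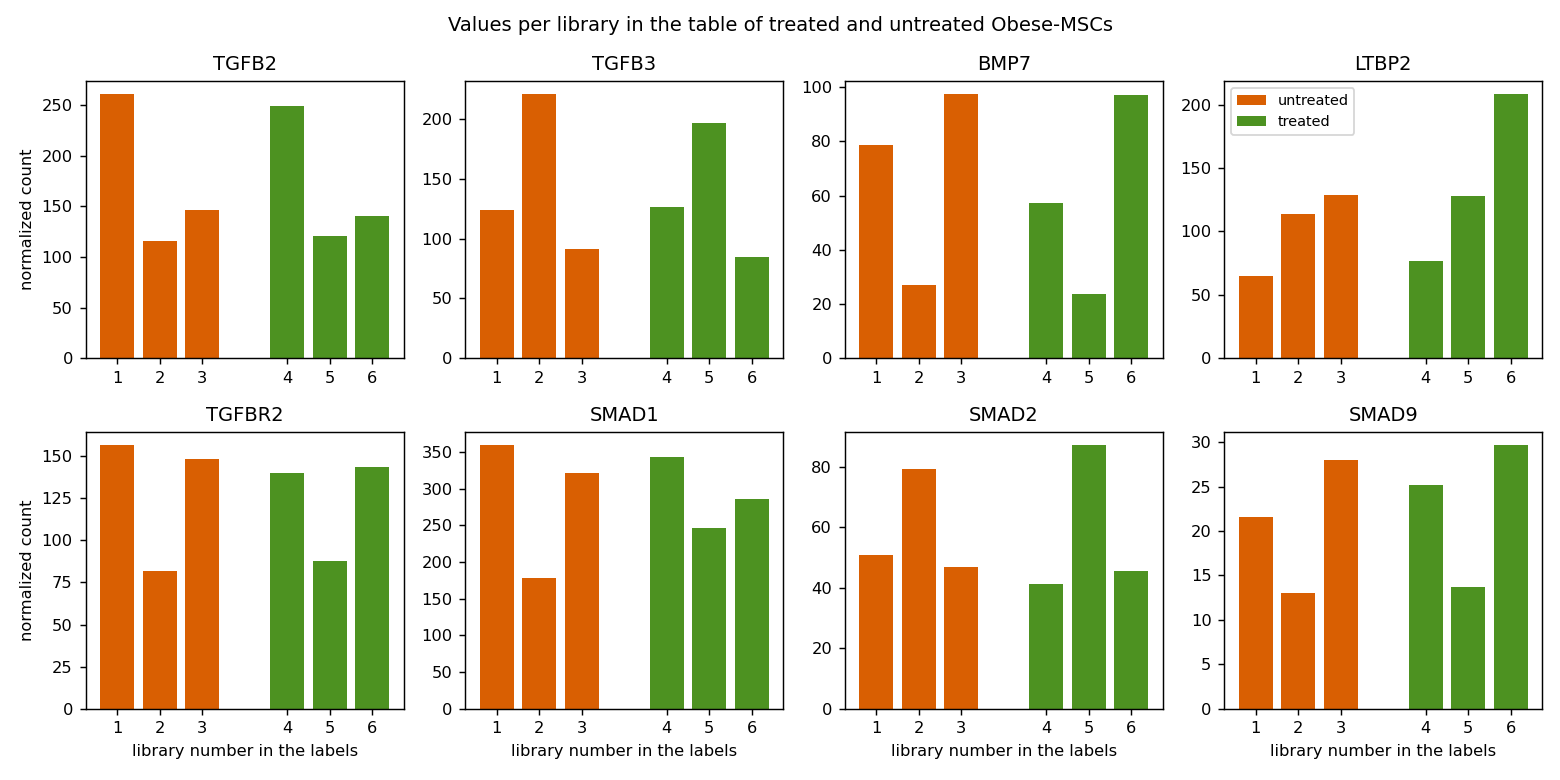
Normalized counts of 8 genes in untreated Obese-MSCs (libraries 1 to 3, orange) and treated Obese-MSCs (libraries 4 to 6, green), 1 bar per library. Libraries 2 and 5 are both the lowest or both the highest of their group for each gene plotted except LTBP2, where libraries 1 and 4 are the lowest.

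Over the 38 genes above 3 counts, the deviation of each library from its group mean was compared between groups. Pearson's r across genes was 0.52 between treated 4 and untreated 1, 0.74 between treated 5 and untreated 2, and 0.45 between treated 6 and untreated 3. The other 6 pairs lay between -0.48 and 0.00. Over 9496 genes in the upper 50% by mean the same pairs stood out, with 0.39, 0.53 and 0.28, while the others lay between -0.30 and -0.10. Among Obese and Lean libraries the 9 pairs lay between -0.35 and 0.26 over the 37 genes, and between -0.19 and 0.17 over 9467 genes chosen by mean in the same way. These values describe genes within libraries, which are not independent replicates, and deviations within a group of 3 sum to 0, so the pairs are not independent either. The labels give no number that ties a treated to an untreated library, and whether these pairs share a pig was not tested. With these pairs as a block, chosen after the data were seen, limma called 0 genes after adjustment, and 2.45% of all genes passed 0.05 unadjusted, beside 0.974% without it. Of the 37 pathway genes tested, 1 passed 0.05 unadjusted, LTBP2, which was higher in the treated library of each pair. Its difference was 0.37 (95% interval 0.03 to 0.71, limma adjusted p-value 1.00). ACVRL1 was also higher in the treated library of each pair, with an interval from -0.06 to 1.73 under that block. So were INHBA, BMP3, BMP4, GDF7, LTBP1 and SMAD9, while BMP5, BMP7, SMAD7 and, at low levels, INHBB were lower in each. The share of all genes with 1 direction in every pair was not computed, so this is not particular to these genes. The standard error of LTBP2 was 0.164 under that block and 0.335 without it. Pairs picked for their likeness in these same values can narrow an interval, so no conclusion is drawn from these intervals.

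**Figure D5:**
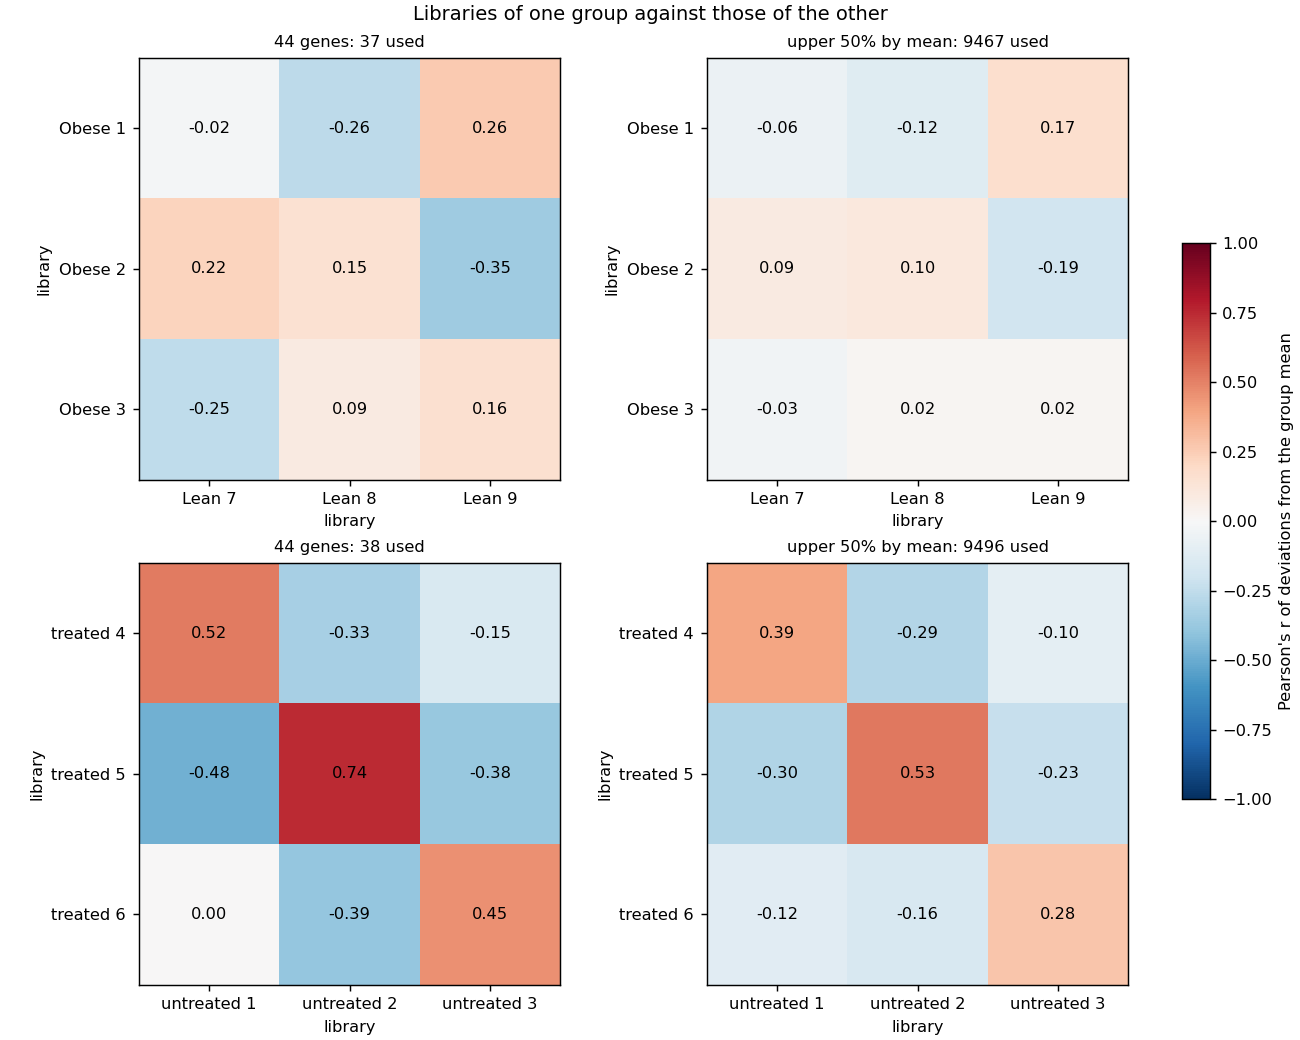
Pearson's r between libraries of the compared groups, of deviations from the group mean of log2(normalized count + 1), over the pathway genes (left) and over genes in the upper 50% by mean (right). In the lower panels the diagonal pairs reach 0.52, 0.74 and 0.45 for the pathway genes and 0.39, 0.53 and 0.28 for the genes in the upper 50% by mean, where the upper panels reach 0.26 and 0.17.

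Several of the 44 genes are neighbours in the genome. Chromosome 1 holds 8 of them, BMP4, TGFBR1, SMAD2, SMAD3, SMAD4, SMAD6, SMAD7 and GREM1, and chromosome 15 holds 6. SMAD6 and SMAD3 are 263 kb apart, ACVR1C and ACVR1 220 kb, and ACVRL1 and ACVR1B 30.2 kb. In Obese-MSCs against Lean-MSCs the log2 ratios of these neighbours were 0.29 for SMAD6 and 0.14 for SMAD3, 1.01 for ACVR1C and -0.26 for ACVR1, and -0.82 for ACVRL1 and 0.19 for ACVR1B, and differences between neighbours were not tested. Across the 44 genes the mean count rose with the genomic span of the gene (Spearman's rho 0.65), as it did across all 18933 genes (0.53).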

How the data were processed

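The authors deposited normalized exonic signal per gene (fractional, never negative) in 2 tables, made per the labels and methods by aligning reads with Bowtie2 2.3.3.1 to susScr 11.1, removing duplicates with Picard 1.67, counting reads over exons with HTSeq 0.9.1 and processing counts with edgeR 3.28.1. Whole reads could not be recovered, so no count test was run. In the deposited file of treated and untreated cells 25 gene names read as dates and matched no gene, and 645 residue values there were set to 0. Tables were normalized separately, so tests stayed within a table.

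The study's criteria were applied to the deposited signal. Limma 3.58.1 (R 4.3.3) tested log2(value + 1) of genes in the upper 80% by mean, with a variance trend and Benjamini-Hochberg adjustment. A fold on that scale understates changes of low genes. Group means under 3 normalized counts were raised to 3 in log2 ratios. The 44 genes, the other 67 pathway genes and the tests were chosen with earlier results of these data known. Values in every library are given for those of the 44 that met the criteria or did not overlap, and for the highest mean in each role (ligands, latency proteins, receptors, SMADs, antagonists). Other pathway genes are named where they met the criteria. Every other gene given with its values was chosen after they were seen. Both methods were tested on data simulated for each table, with some genes changed by a ratio of 3. The study's criteria found 85.5% and 85.0% of the changed genes, and also called 701 and 768 unchanged genes. Limma found 84.5% and 83.5%, and called 10 and 7 unchanged genes. Positions are from RefSeq on Sscrofa11.1, matched by symbol for all 44. The entry for INHBA has the biotype other and spans 1.75 kb, so its span is uncertain. It was kept in the correlation with span. Sequences were not used here. Alternatives were other thresholds, scalings, filters and pseudocounts, and each library left out.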

Additional observations from a re-analysis of the deposited data

How the results depend on the processing

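With 3 libraries per group, 1 library often decided whether a gene of the pathway met the study's criteria. In Obese-MSCs against Lean-MSCs the count of 1 became 0 at a p-value threshold of 0.01 and 0 at a ratio of 2 or 0.5, and ranged from 0 to 2 as each library was left out. The count of the other 67 pathway genes, 2, became 0 and 0 under the same thresholds and ranged from 1 to 4. In the treated comparison the count of 0 ranged from 0 to 2 (2 without treated library 6, and 1 each without untreated libraries 1 and 3), and that of the other pathway genes from 0 to 5 (5 without treated library 6). For the latter it was 1 with the study's test on log2(value + 1). Shares of all genes under these settings are not given here, so these counts cannot be read as a response of the pathway. The median log2 ratio in Obese-MSCs against Lean-MSCs ranged from 0.039 (without Obese 1) to 0.19 (without Lean 7), and in the treated comparison from -0.050 to 0.13, the latter without treated library 5. Limma called 0 genes in Obese-MSCs against Lean-MSCs under the other planned settings, and 0 to 1 as each library was left out (1 without Obese 1 and 1 without Obese 2). The cause of these changes was not tested. Among the genes of the pathway with a mean above 3 in either group, the log2 ratio kept its direction with size factors, with mean log2(value + 1) and with each library left out for 21 genes and not for 17 in Obese-MSCs against Lean-MSCs, and for 14 and 25 in the treated comparison. The labels give the groups no shared replicate numbers, so the main tests paired no libraries. It is not stated whether treated and untreated cultures shared pigs, so a pairing is unknown rather than absent. After the data were seen, treated and untreated libraries were matched in all 6 ways and each matching was used as a block, and limma called 0 genes under each, with smallest adjusted p-values of 1.00. Of the 37 pathway genes tested, 1 passed 0.05 unadjusted (LTBP2) when libraries 4, 5 and 6 were matched with 1, 2 and 3, and 0 did under the other matchings. Intervals of most genes at this depth reached a ratio of 1.4.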
